A study of Mus musculus with 12 samples.

Results

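The 10 genes described here mark homeostatic microglia and macrophages, and they were taken by name. They were Cx3cr1, P2ry12, P2ry13, Gpr34, Siglech, Adgre1, Tmem119, Olfml3, Aif1 and Sall1, and every non-control probe whose RefSeq identifier belonged to one of them was kept. This gave 15 of the 55681 distinct non-control probes of the array, for 10 of the 20887 named genes on it. Neurospheres, floating aggregates grown from neural progenitor cells of the embryonic mouse telencephalon at day 13, were differentiated for 7 days without growth factors, and their RNA was hybridised to 12 two-colour arrays in 3 comparisons of 4 arrays each. The first comparison set APP_WT cells against WT cells, the second BK_APP against APP_WT and the third HOE_APP against APP_WT. WT cells came from untreated C57BL/6 mice and APP_WT cells from untreated APPswe/PS1dE9 mice, a transgenic model of Alzheimer's disease whose transgenes include a chimeric mouse and human amyloid precursor protein with the Swedish mutation. BK_APP cells were APPswe/PS1dE9 cells given 1 µM bradykinin, the peptide that activates the B2 kinin receptor, on days 0, 3 and 6 of differentiation. HOE_APP cells received 1 µM HOE-140, a peptide antagonist of that receptor, on the same days. No treated WT cells were among the samples, and the untreated APP_WT cells were the reference of both treatment comparisons, which therefore share their reference condition. The study's methods give 4 independent biological replicates per condition with the dyes exchanged on 2 of the 4 arrays.

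Microglia are the resident macrophages of the brain and descend from yolk sac progenitors, not from the neuroectoderm that yields neurons, astrocytes and oligodendrocytes. In the resting state they read their surroundings through a small set of receptors, among them the fractalkine receptor CX3CR1 and the purine receptors P2RY12 and P2RY13. TMEM119 and P2RY12 separate them from other macrophages in adult brain, while AIF1 (the Iba1 antigen) and ADGRE1 (the F4/80 antigen) are shared by many macrophages. The labels name neural progenitor cultures and give no sort for or against microglia. In such bulk RNA, more cells of a type and more RNA per cell of that type cannot be told apart.

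Levels are given as normalised intensities in arbitrary units, and they can be compared between conditions for a single probe but not between probes. Differences are given on the log2 scale as the mean of the array ratios with the standard error (SE) of the fit, and the adjusted p is limma's after Benjamini-Hochberg correction over all 29357 expressed probes. A probe counted as expressed when, in any of the comparisons, the channel of either condition was well above background on 3 arrays or more. Of the 15 probes, 11 were expressed, and these served 7 of the 10 genes. Cx3cr1, Adgre1 and Tmem119 passed that filter through APP_WT or treated cells and not through WT cells, so they could enter the test only by being brighter there. An offset of 50 intensity units was added during background correction, which makes the differences of dim probes smaller than the change in RNA. Over the whole set, the median signal of a non-control spot lay between 63 and 94.5 units in the green channel and between 89.5 and 117.5 in the red, and 45.2% to 60.1% of spots were well above background. Arrays hybridised in the same dye orientation correlated at 0.53 and 0.61 across probes in the APP_WT comparison, against 0.24 to 0.43 in the treatment comparisons. Between opposite orientations the treatment arrays correlated negatively (from -0.32 to -0.11 across probes), and a dye term was fitted in each comparison. Each HOE_APP array is labelled with the same treatment in both channels, so the direction of every HOE_APP value below is the likely one and not a settled one. It was taken from the label of the Cy5 channel, the order of the conditions in the titles and the exchanged dyes, and ratios turned this way correlated with the deposited ones at 0.9986 or above.

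In WT cells 4 of the 10 genes (Siglech, Olfml3, Aif1 and Sall1) stood well above background on all 4 arrays, counting a gene by its most often detected probe. Siglech counts through its bright probe only, and its other probe was detected on 0 of 4 WT arrays. Cx3cr1 was detected on 2 WT arrays and Tmem119 on 1, and P2ry12, P2ry13, Gpr34 and Adgre1 were detected on 0 of 4. In APP_WT cells of the same comparison Cx3cr1, Adgre1 and Tmem119 were detected on 4 of 4 arrays and P2ry12 on 1, and P2ry13 and Gpr34 remained at 0 of 4. The counts for the treated cells were the same as those of APP_WT cells for 7 genes, while P2ry12 was at 0 arrays, P2ry13 was read on 1 HOE_APP array, and Tmem119 was read on 3 BK_APP arrays and 4 HOE_APP arrays. Detection on an array means signal over local background and is a limit of the probe's brightness as well as of the RNA.

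**Figure D1:**
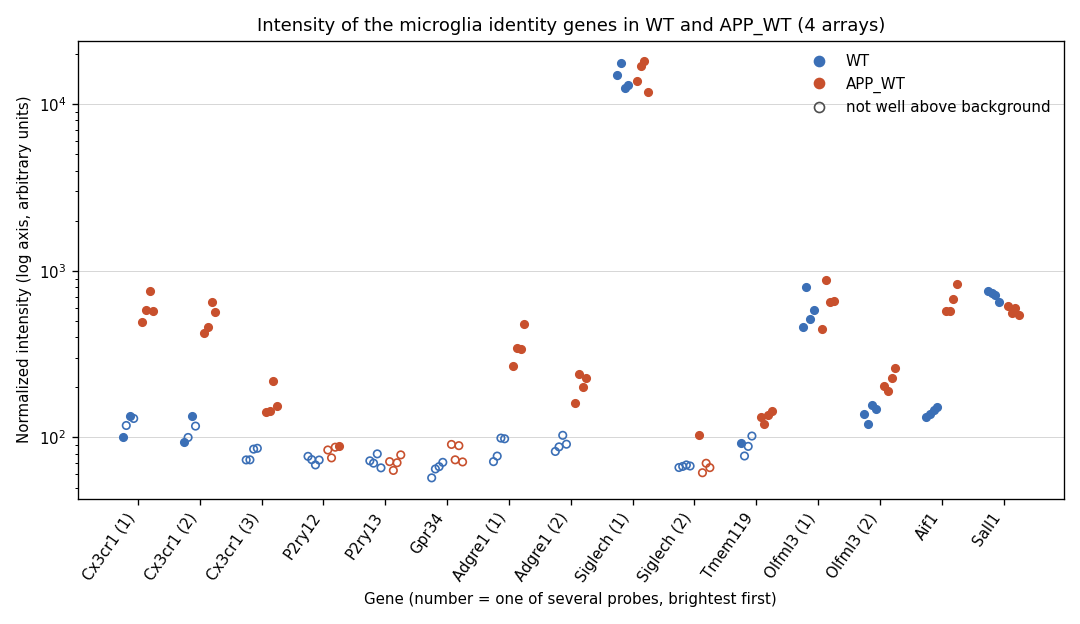
Normalised intensity (log axis, arbitrary units) of each probe of the 10 genes on the 4 arrays that compared APP_WT with WT cells, with filled points for channels well above background and open points for the others. Cx3cr1, Adgre1 and Aif1 separate by condition, P2ry12, P2ry13 and Gpr34 stay between 57.2 and 90.8 units in both, and the brighter Siglech probe overlaps.

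APP_WT cells differed from WT cells at 5 of the 7 genes that could be tested: Cx3cr1, Adgre1, Aif1 and Tmem119 were higher and Sall1 was lower. In the same fit 18.6% of all expressed probes passed, 11.5% higher and 7.01% lower. Counted by gene, as the members are, 17% of the 14327 tested genes were called higher and 8.04% lower. The share of higher among the called probes, 62.2%, depended on the scaling and was 34.2% with processed signals, 33.3% with the deposited ratios, 36.4% with median centering and 84.5% with no dye term. The members called higher include 3 that the filter admitted through APP_WT or treated cells. Of the 4 genes that WT cells alone would have admitted, 1 rose (Aif1), 1 fell (Sall1), and Siglech and Olfml3 did not pass on their brighter probes. The median difference over the 7 genes was 0.57 on the log2 scale, with array medians between 0.50 and 0.64, while over all 14327 genes tested it was 0.01. That median rested on the processing: it was 1.05 without the offset, 1.82 with processed signals or the deposited ratios, and 0.10 over the 4 genes left by a strict detection filter.

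CX3CR1 is the microglial receptor for fractalkine, a chemokine that neurons carry on their membrane. Its gene was read by 3 probes. At the first (A_55_P2007964) the WT intensities were 100, 118, 134 and 130 on arrays 1 to 4, and the APP_WT intensities were 494, 579, 760 and 575. The conditions did not overlap, and the lowest APP_WT value stood far above the highest WT value. The 4 log2 ratios were 2.30, 2.30, 2.50 and 2.15, which gave 2.31 ± 0.07 (SE; adjusted p = 2.13e-08), or 4.97-fold. The size is tied to the background correction, with 2.98 at no offset and 3.50 with Agilent's processed signals, and 2 of the 4 WT values were not well above background. A further probe (A_55_P2054362) gave 2.23 ± 0.06 (adjusted p = 1.54e-08). At A_52_P99810 no WT channel was well above background, and the log2 ratios ran from 0.85 to 1.35. APP_WT was 2.05-fold higher at the fitted mean of this probe (adjusted p = 3.7e-06), and the change can be larger. All 3 probes carry the same RefSeq transcript and are not independent measurements of it.

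AIF1 is an actin-binding protein of macrophages. Counting each gene by its brightest probe, Aif1 was the only one called higher in APP_WT cells that was also read on every WT array. The dimmer Olfml3 probe, described below, was likewise read on all 4 WT arrays and called higher. The WT intensities of A_51_P400543 were 133, 138, 146 and 153 and the APP_WT intensities 578, 578, 680 and 840. Every APP_WT value lay above every WT value. The log2 ratios of 2.12, 2.06, 2.22 and 2.45 gave 2.21 ± 0.08 (adjusted p = 6.66e-08), or 4.64-fold, and with processed signals the difference was 2.89.

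ADGRE1 is the F4/80 surface receptor. The WT intensities of its first probe (A_55_P2144386) were 71.6, 77.3, 99.1 and 98.2, of which 0 of 4 were well above background, and the APP_WT intensities were 269, 345, 341 and 482. APP_WT was 4.10-fold higher at the fitted mean (adjusted p = 3.64e-07), and the change can be larger. The log2 ratios were 1.91, 2.16, 1.78 and 2.30 on the 4 arrays. The gene's other probe (A_55_P2018934) was also below detection in WT, with log2 ratios of 0.96, 1.46, 0.95 and 1.33. It gave 2.26-fold at the fitted mean (adjusted p = 5.43e-06), and here too the change can be larger. Both probes thus separated the conditions on all 4 arrays and differed in the size of the fitted mean. With processed signals their differences were 4.18 and 2.54.

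Because Cx3cr1, Aif1 and Adgre1 moved together, the sequences upstream of the members' start sites were read from RefSeq (GRCm38.p6), which held a promoter for 7 of the 10 genes (Cx3cr1, P2ry12, P2ry13, Siglech, Olfml3, Aif1 and Sall1). They were searched on both strands for GAGGAA, the core of the element bound by PU.1, the transcription factor of the myeloid lineage. Over the 250 bases before the start, 2 of the 7 genes held it, and 23.3% of all 32851 promoters in the table did. Below are a pair of genes that rose in APP_WT cells (Cx3cr1 and Aif1) and a pair that stayed at background (P2ry12 and P2ry13). Each is written 5′ to 3′ along the gene's minus strand with the last base next to the start site, and capitals mark the match: Cx3cr1 is at chr9:120068297-120068546, Aif1 at chr17:35176053-35176302, P2ry12 at chr3:59262986-59263235 and P2ry13 at chr3:59210883-59211132.
Cx3cr1: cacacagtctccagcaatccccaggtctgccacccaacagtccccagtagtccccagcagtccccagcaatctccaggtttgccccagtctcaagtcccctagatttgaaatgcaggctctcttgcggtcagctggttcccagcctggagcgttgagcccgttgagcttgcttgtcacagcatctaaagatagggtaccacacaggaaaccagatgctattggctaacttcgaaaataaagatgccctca
Aif1: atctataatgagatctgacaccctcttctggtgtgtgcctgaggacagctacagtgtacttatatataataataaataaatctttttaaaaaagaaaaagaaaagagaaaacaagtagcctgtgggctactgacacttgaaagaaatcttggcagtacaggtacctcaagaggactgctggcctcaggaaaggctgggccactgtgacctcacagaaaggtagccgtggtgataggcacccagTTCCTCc
P2ry12: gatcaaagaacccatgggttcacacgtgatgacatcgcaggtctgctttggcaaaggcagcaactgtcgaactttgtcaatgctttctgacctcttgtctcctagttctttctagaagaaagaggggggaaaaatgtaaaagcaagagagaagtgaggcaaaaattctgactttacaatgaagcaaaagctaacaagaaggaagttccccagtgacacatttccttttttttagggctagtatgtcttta
P2ry13: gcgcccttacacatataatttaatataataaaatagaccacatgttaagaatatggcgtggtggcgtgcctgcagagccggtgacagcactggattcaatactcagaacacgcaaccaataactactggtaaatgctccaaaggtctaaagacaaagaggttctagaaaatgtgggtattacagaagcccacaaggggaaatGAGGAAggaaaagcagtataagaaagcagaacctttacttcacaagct
The match of Aif1 lies on the reverse strand, with its first base 7 bases before the start, and that of P2ry13 on the forward strand, 48 bases before it. The Cx3cr1 and P2ry12 windows held none. One gene of each pair therefore held these letters. P2ry12 and P2ry13 were too dim for a difference to be tested, so these windows cannot show whether the letters go with a rise. P2ry12 and P2ry13 lie on the same chromosome in the same orientation.

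P2RY12 and P2RY13 are receptors for ADP, and GPR34 is a receptor for lysophosphatidylserine. The P2ry12 probe (A_51_P338878) read 68.4 to 77.0 units in WT cells and 75.4 to 88.8 in APP_WT cells. The 4 log2 ratios were 0.13, 0.04, 0.35 and 0.28, all above 0, but the channel was well above background on 1 APP_WT array only and the gene was not tested. P2ry13 (A_51_P374900) had ratios on both sides of 0, from -0.18 to 0.26. Gpr34 (A_55_P2039684) had ratios of 0.67, 0.18, 0.42 and 0.01 with intensities of 57.2 to 70.9 in WT and 71.3 to 90.8 in APP_WT cells, none of them well above background. These 3 genes were thus at the edge of what the array reads in WT and APP_WT cells, and a difference in them was not detectable at this brightness. The same held on the treatment arrays, except that P2ry13 was well above background in both channels of 1 HOE_APP array.

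**Figure D2:**
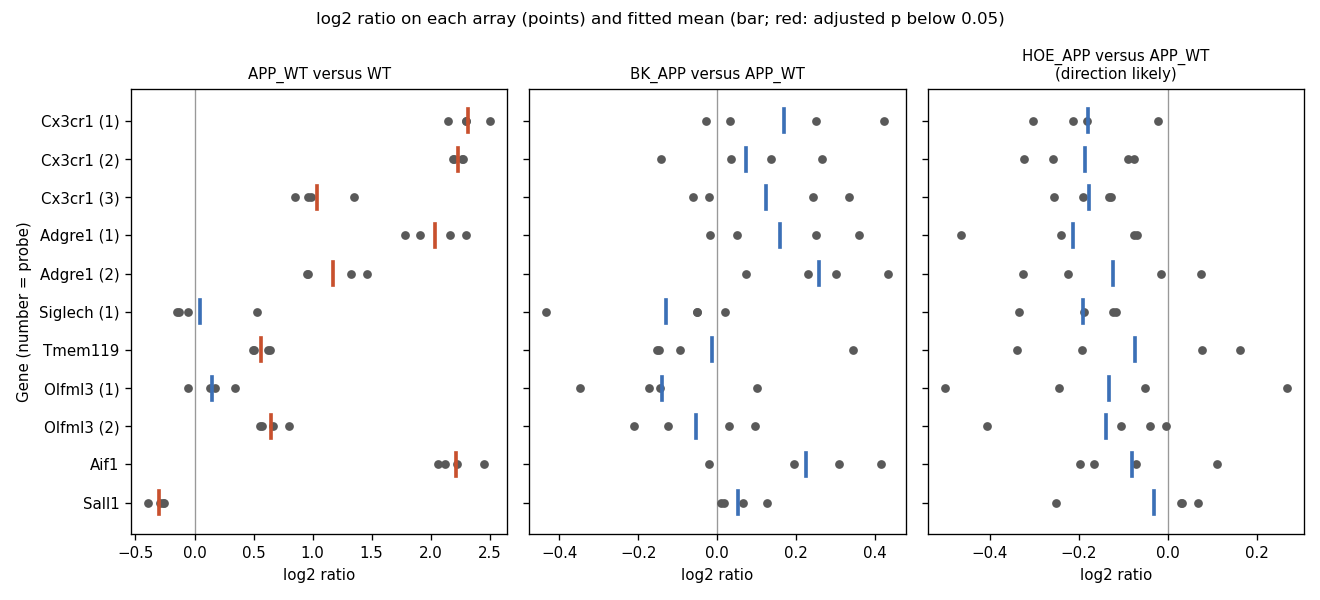
Log2 ratio of each probe on each of the 4 arrays of the 3 comparisons, with 1 panel per comparison; the horizontal ranges of the panels differ, and 0 marks equal intensity. The ratios of Cx3cr1, Aif1 and Adgre1 are near 2 on all 4 APP_WT arrays at their first probes, while most probes of the bradykinin panel have ratios on both sides of 0. In the HOE_APP panel the 3 Cx3cr1 probes, the first Adgre1 probe, the bright Siglech probe and the dimmer Olfml3 probe lie below 0 on all 4 arrays. The other probes of that panel have ratios on both sides of 0.

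TMEM119 is a transmembrane protein of resident microglia. Its probe (A_51_P418116) was dim in WT cells, with intensities of 93.1, 77.4, 88.4 and 102, of which only the first was well above background. The APP_WT intensities were 132, 121, 136 and 144, each above all WT values. The log2 ratios of 0.50, 0.64, 0.62 and 0.50 gave 0.57 ± 0.07 (adjusted p = 0.000382), or 1.48-fold. This size depended on the background correction: without the offset it was 1.05, and with Agilent's processed signals it was 1.82, both called.

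SIGLECH is a sialic acid-binding lectin of microglia and plasmacytoid dendritic cells. Its 2 probes were far apart in brightness. A_55_P2141013 read 12500 to 17800 units in WT cells and 11800 to 18100 in APP_WT cells, with log2 ratios of -0.13, -0.05, 0.53 and -0.15. The conditions overlapped, and the difference of 0.05 ± 0.10 did not pass (adjusted p = 0.771); without array 3 it was -0.12. A_55_P2165790 read 66.0 to 68.4 units in WT cells, none well above background, and was not tested. Both probes are annotated to the same RefSeq transcript, and which of them follows the Siglech transcript was not tested.

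OLFML3 is a secreted olfactomedin-like protein of the extracellular matrix. The brighter of its probes (A_55_P2102540) gave log2 ratios of -0.05, 0.13, 0.34 and 0.18 and a difference of 0.15 ± 0.07 (adjusted p = 0.198). The dimmer one (A_51_P191782) gave 0.57, 0.66, 0.56 and 0.80 and rose by 0.65 ± 0.08 (adjusted p = 0.000179), with WT intensities of 120 to 156 against 190 to 260 in APP_WT cells. The probes therefore disagreed on the call, and the brighter one, used for the count above, left Olfml3 among the genes that did not pass.

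SALL1 is a zinc finger transcription factor that holds microglia in their resting state in adult brain, and it is also made by neural progenitors of the embryo. It was the only member lower in APP_WT cells. The intensities of A_55_P1977850 were 756, 733, 718 and 652 in WT cells and 618, 558, 595 and 545 in APP_WT cells, so the ranges did not overlap. The log2 ratios of -0.29, -0.39, -0.27 and -0.26 gave -0.30 ± 0.06 (adjusted p = 0.00308), or 0.81-fold. Across the alternative settings that could test it, Sall1 stayed below 0 with values from -0.45 to -0.28 and adjusted p from 0.00164 to 0.0481. Its relatives Sall2 and Sall3 gave 0.02 and -0.04 and were not called, and with Agilent's processed signals both were below 0 (-0.02 and -0.23).

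The other genes of the microglial programme were read from a list of 25, of which 24 were on the array and 20 were tested. Of these 20, 17 rose in APP_WT cells and 0 fell, with a median of 1.04, and 0 were lower under each scaling and without each replicate in turn. Only 8 of the 20 were read on at least 3 WT arrays at their tested probes, and 6 of those 8 rose. Ctss, the lysosomal protease cathepsin S, differed by 2.52 ± 0.09 (adjusted p = 5.42e-08) and was read on only 1 WT array. Fcer1g, the signalling chain of Fc receptors, was read on all WT arrays and rose by 2.23 ± 0.09 (adjusted p = 1.28e-07). C1qc, a chain of complement C1q, was likewise read on all 4 and rose by 2.07 ± 0.08 (adjusted p = 8.32e-08). Csf1r, the receptor on which microglia depend for survival, rose by 0.95 ± 0.06 (adjusted p = 1.3e-06), and Irf8, a myeloid transcription factor, by 0.94 ± 0.06 (adjusted p = 3.7e-06). Tested but not called were Itgam (0.11), Selplg (0.11) and Mertk (0.16), an integrin chain, an adhesion ligand and a phagocytic receptor. Spi1, which encodes PU.1, was read on 0 WT arrays and 1 APP_WT array and was not tested.

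**Figure D3:**
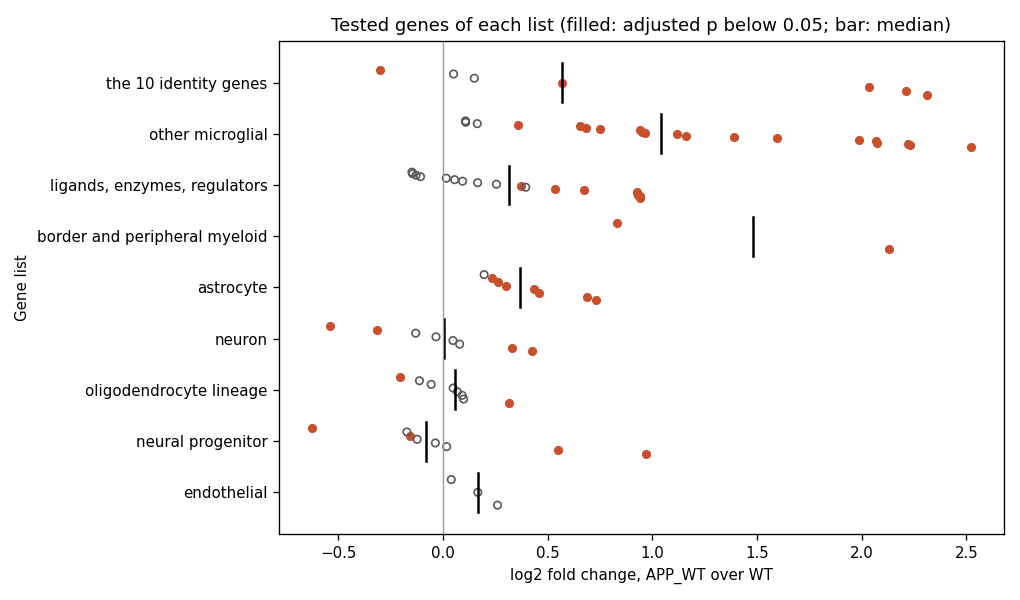
Log2 difference between APP_WT and WT cells for each tested gene of each list, 1 point per gene, with filled points for an adjusted p below 0.05 and the bar at the list's median. Points of the microglial list lie mostly above 0 (17 of 20 called higher), and neuronal genes lie on both sides of 0 (2 called each way).

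Ligands, enzymes and regulators that act with the members formed a list of 20 genes, all on the array, 18 of them tested. Of these 18, 8 rose, 0 fell and the median was 0.31; with Agilent's processed signals or with median centering 2 of them were called lower. Cx3cl1, which encodes the fractalkine bound by CX3CR1, rose by 0.94 ± 0.08 (adjusted p = 2.63e-05), while the proteases that shed fractalkine, Adam10 and Adam17, gave -0.11 and 0.06 and were not called. Both ligands of CSF1R were called higher, Csf1 by 0.94 ± 0.08 (adjusted p = 2.01e-05) and Il34 by 0.67 ± 0.07 (adjusted p = 0.000123). Among the genes of TGF-beta signalling, on which the resting state of microglia depends, Tgfb3 (0.93), Tgfbr2 (0.93) and Smad3 (0.54) rose, Tgfb2 (0.17) and Tgfbr1 (-0.15) did not pass, and Tgfb1 was not expressed on these arrays. Of the genes that handle extracellular nucleotides, the ATP-gated channels P2rx7 (0.93) and P2rx4 (0.37) rose, and the ectoenzymes Entpd1 (-0.13) and Nt5e (0.02) and the adenosine receptor Adora2a (0.09) were not called.

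Markers of other cells moved in this comparison too, and their part in the members' differences was not tested. Of 12 genes of border and peripheral myeloid cells, 11 were on the array and 9 of them were read on 0 WT arrays. The 2 that could be tested were called higher. The filter admitted both through APP_WT or treated cells and not through WT cells, so they could enter the test only by being brighter there. Ms4a7, below detection on all 4 WT arrays, gave 2.13 ± 0.13 (adjusted p = 2.13e-06), or 4.38-fold at the fitted mean, and the change can be larger. Pf4, read on 1 WT array, gave 0.83 ± 0.12 (adjusted p = 0.00109). Mrc1, Cd163, Lyve1, S100a8, S100a9 and Clec12a were at 0 of 4 arrays in both conditions. Ccr2, a receptor of monocytes, was read on 2 WT arrays and 1 APP_WT array, and F13a1 and Plac8 were each read on 1 APP_WT array and 0 WT arrays. Intensities were summed within a list to compare the conditions, not the lists. Such sums are carried by the brightest probes, or by background where most probes of a list are not expressed. Over the 11 border and peripheral myeloid genes the sum was 748 to 875 in WT and 1030 to 1400 in APP_WT cells, most of the WT sum being background. Over the 2 tested genes of that list alone it was 128 to 242 and 407 to 754. Over the 24 microglial genes on the array it was 11000 to 13000 and 15800 to 19900. Of 8 astrocyte genes 7 rose and 0 fell (median 0.37), although only 3 were called with median centering in place of loess (median 0.18) or with no dye term, with summed intensities of 98400 to 121000 in WT and 136000 to 150000 in APP_WT cells. Of 8 neuronal genes 2 rose and 2 fell, of 8 oligodendrocyte lineage genes 1 rose and 1 fell, and of 8 neural progenitor genes 2 rose (among them Vim, 0.97) and 2 fell (among them Hes5, -0.63). These counts of neuronal, oligodendrocyte and progenitor genes moved by up to 2 when 1 replicate was left out. With median centering 3 neuronal, 2 oligodendrocyte lineage and 4 progenitor genes were called lower. Over all tested genes 17% were called higher and 8.04% lower in the main fit. Of 3 endothelial genes tested 0 were called, although 2 passed without replicate 1. App (0.12, adjusted p = 0.0925) and Gapdh (0.14, adjusted p = 0.148) were not called, and both were at -0.06 with median centering, where the median of all probes moved to -0.07. Whether the App probe also reads the transgene is not given in the sources used here.

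Neither treatment gave a called member. After bradykinin 0 of the 11 expressed probes passed (adjusted p from 0.967 to 0.994) and 0% of all expressed probes did, with 3 of the 11 and 1311 of all 29357 at an unadjusted limma p under 0.05. After HOE-140 0 of 11 passed (0.924 to 0.98), again beside 0%, with 3 of the 11 and 1474 of all at an unadjusted p under 0.05. By the study's own kind of call, which required significance analysis of microarrays and rank products at an unadjusted p of 0.05 or lower, 2 of the 11 probes were called after bradykinin (Adgre1 and Aif1, higher), beside 1.83% of all, and 5 after HOE-140, beside 2.31% of all. The 5 were the 3 Cx3cr1 probes, 1 Adgre1 probe and the bright Siglech probe, all lower. The median difference of the 7 genes was 0.05 after bradykinin, with array medians of 0.31, -0.02, 0.01 and -0.03, and -0.13 after HOE-140, with array medians from -0.20 to -0.07. Over all tested genes the medians were 0.000773 and 0.00432.

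The genes that stood apart between APP_WT and WT cells had small differences from untreated APP_WT cells under treatment. Cx3cr1 (A_55_P2007964) had log2 ratios of 0.42, 0.25, 0.03 and -0.03 after bradykinin and of -0.18, -0.21, -0.02 and -0.30 after HOE-140. The bradykinin ratios were higher on the arrays of the first dye orientation (1 and 2) than on those of the exchanged one (3 and 4), and the HOE-140 ratios were below 0 on all 4. Aif1 ratios were 0.31, 0.19, 0.42 and -0.02 after bradykinin, a difference of 0.22 with a 95% interval of 0.05 to 0.40 (no adjustment), and -0.17, -0.07, 0.11 and -0.20 after HOE-140, a difference of -0.08 with an interval of -0.25 to 0.09. Adgre1 at A_55_P2018934 was above 0 on 4 of 4 bradykinin arrays (0.23, 0.07, 0.30 and 0.43), and 1 of its 4 HOE-140 ratios was above 0. Sall1 differed by 0.05 after bradykinin (interval -0.07 to 0.18) and by -0.03 after HOE-140 (-0.15 to 0.09). Tmem119 gave -0.01 (-0.18 to 0.15) and -0.07 (-0.24 to 0.09). For Cx3cr1, Aif1 and Adgre1 no interval after either peptide reached beyond 0.45 in size, against differences near 2 at their first probes between APP_WT and WT cells. The P2ry13 probe read up to 235 units on a single HOE_APP array, with a log2 ratio of 1.34 there and of -0.03, -0.07 and 0.21 on the others. The APP_WT channel of that array read 92.6 units and was also well above background.

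**Figure D4:**
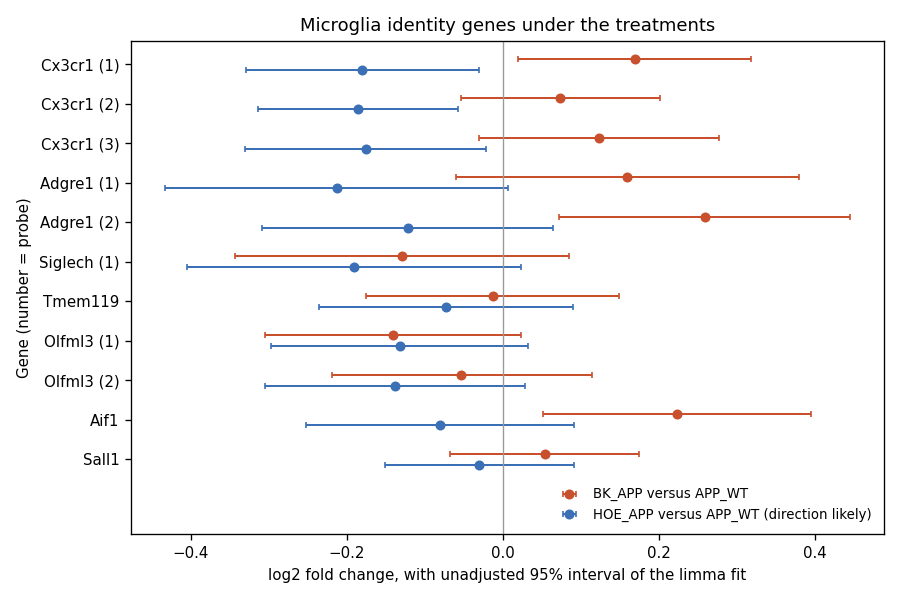
Fitted log2 difference of each expressed probe after bradykinin and after HOE-140 against untreated APP_WT cells, with bars for the 95% limma interval without adjustment. In the likely orientation all 11 HOE-140 values lie below 0, and 7 of the 11 bradykinin values lie above 0. The 11 probes serve 7 genes, and no probe passes after adjustment. Across 14 alternative settings in that orientation the HOE-140 value was below 0 in 13 for Aif1 and in 10 for Sall1.

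Bradykinin and HOE-140, an agonist and an antagonist of the same receptor and both peptides, were given at the same dose on the same days and could be compared directly. In this single comparison 0 of 11 probes differed between them (adjusted p = 1 for each), in the fit without pairing, beside 0% of all expressed probes, with 6 of the 11 and 732 of all 29357 at an unadjusted limma p under 0.05. Values below are bradykinin minus HOE-140 on the log2 scale with unadjusted 95% intervals. Cx3cr1 differed by 0.35 ± 0.10 (0.14 to 0.56), Adgre1 by 0.37 ± 0.14 (0.06 to 0.68) and Aif1 by 0.31 ± 0.11 (0.06 to 0.55). These sizes exist only under the likely orientation of the HOE_APP arrays: with its sign turned they were -0.01 (-0.22 to 0.20), -0.05 (-0.36 to 0.26) and 0.14 (-0.10 to 0.39). Same-numbered treatment arrays deviated together, and as orientated the differences within the 4 pairs were 0.60, 0.46, 0.06 and 0.28 for Cx3cr1 and 0.48, 0.27, 0.31 and 0.17 for Aif1. Both genes and Adgre1 were above 0 in 4 of 4 pairs at each of their probes. The probes of Cx3cr1, and those of Adgre1, are annotated to the same transcript. The share of all expressed probes above 0 in 4 of 4 pairs is not given here, so the count has no background to be read against. With the replicate number as a block over these 8 arrays, an alternative chosen after seeing the data, the limma adjusted p of the 11 probes lay between 0.147 and 0.987, so 0 passed. Intervals that include 0 were found for Siglech (-0.24 to 0.37), Tmem119 (-0.17 to 0.29), the brighter Olfml3 probe (-0.24 to 0.22) and Sall1 (-0.09 to 0.26). A missed threshold does not show that the peptides acted alike, and differences up to the upper limits named here are within the intervals. With the sign turned, the bright Siglech probe was at -0.32 (-0.62 to -0.02) and the brighter Olfml3 probe at -0.27 (-0.51 to -0.04), and 0 probes passed after adjustment.

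The genes with the log2 ratios most like those of each member over all 12 arrays were found by the root mean square difference. For Cx3cr1 they were Fcer1g (0.17), Gpr84 (0.17) and Ctss (0.21), and for Aif1 Fcer1g (0.11), Bcl2a1d (0.12) and C1qc (0.13). Adgre1 was nearest to Igtp (0.12), Tlr2 (0.15) and Acod1 (0.17), genes of interferon and innate immune responses. Tmem119 was nearest to Grn (0.14), Cyb5r3 (0.15) and Acsbg1 (0.15). Sall1 (Zfp9, 0.08; Kdm3a, 0.08; Abhd17c, 0.08), the bright Siglech probe (Mtif2, 0.07; Dnase2a, 0.07; Lzts3, 0.08) and the brighter Olfml3 probe (Vmn1r240, 0.08; Pml, 0.10; Tab2, 0.10) had other neighbours. The measure takes in the size of the ratios, so genes with differences of like size between APP_WT and WT cells come out near each other. The neighbours of Adgre1 (2.04) stood at 1.94, 2.01 and 2.12 in that comparison, and Acod1 was read on 0 WT arrays and Tlr2 on 1. A shared function was not tested. The measure is a description over ratios that share APP_WT as one side of every array.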

How the data were processed

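RNA (100 ng per sample) was labelled and hybridised to 12 two-colour Agilent mouse arrays. Per the file headers, deposited median signals and backgrounds are intensities extracted with Feature Extraction 11.0.1.1, the scanner files also hold log10 ratios, and the authors deposited a table of log2 ratios, used here only as an alternative and to check orientation. The members and lists were chosen with earlier results of these data known. Background was corrected with normexp (offset 50) and dyes were balanced by loess (span 0.3). Of 62976 spots, 3671 control spots were left out and spots of a probe were averaged. limma 3.58.1 (R 4.3.3) fitted 12 arrays with a mean ratio and a dye term for each of 3 comparisons, leaving 6 residual degrees of freedom, to 29357 expressed probes; calls had an adjusted p below 0.05. Of these probes, 461 had a missing value. Intensities per channel were taken after scaling between arrays. The brightest expressed probe stood for a gene. Named genes were the members, the 3 nearest genes by ratio, and genes of the lists taken as the largest, the smallest and those acting with a member; the last were partly chosen after their values were seen. RefSeq (GRCm38.p6) gave names to 27509 of 29150 RefSeq probes. The APP_WT versus WT arrays and the treatment arrays lay on different slides, so slide and comparison cannot be told apart, while each ratio is within an array. The number of arrays limits precision. Replicate numbers paired the treatment arrays, which also share a dye orientation (deviations correlated at 0.52 to 0.67, and at 0.42 to 0.43 with the dye effect removed). Deviations of the APP_WT versus WT arrays correlated negatively with both (-0.60 to -0.30, and -0.504 to -0.205 with the dye effect removed). APP_WT cells are the numerator in the APP_WT versus WT ratios and the denominator in the treatment ratios. A block was therefore also fitted with the APP_WT versus WT ratios turned. Scripts were tested on simulated data.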

Additional observations from a re-analysis of the deposited data

Results flagged for a closer look

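Of the 45 sets of 4 log2 ratios examined, 4 held an array that stood apart from the other three by Dixon's criterion (the gap to the nearest array against the range), and chance alone gives about 1 in 20. The bright Siglech probe was high on array 3 of APP_WT versus WT (0.53) and low on array 3 of BK_APP versus APP_WT (-0.43). Without those arrays its differences were -0.12 and -0.03, neither called. Tmem119 was high on BK_APP array 1 (0.34), and without it the difference was -0.14, not called. Sall1 was low on HOE_APP array 3 (-0.25), and without it the difference was 0.04, not called.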

How the results depend on the processing

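Of the 7 tested members, the same 5 were called between APP_WT and WT cells under each alternative that kept them testable, except that the median over a gene's probes added Olfml3 (6). Requiring both channels well above background on all arrays left 4 testable genes and 2 calls (Aif1 and Sall1). No called member changed sign. The median of the members was 1.82 with Agilent's processed signals and with the deposited log2 ratios, 1.05 without the offset, 0.73 without background correction, 0.26 with no filter (10 genes) and 0.10 with the strict filter. Leaving out 1 replicate gave 5 to 5 calls and medians of 0.53 to 0.60. Under treatment, 0 members were called in each limma fit. Significance analysis of microarrays with rank products called 1 after bradykinin and 3 after HOE-140. Leaving out 1 replicate gave 0 to 0 calls in each and medians of 0.03 to 0.11 after bradykinin and -0.17 to -0.10 after HOE-140. The HOE-140 median was -0.046 under median centering and 0.13 with the sign turned. A replicate block over all 12 arrays (consensus correlation -0.15) left 5, 0, 0 and 0 calls, as did a block with the APP_WT versus WT ratios turned (0.33), chosen after seeing the data. A block over the 8 treatment arrays (0.45) left 0 calls between the peptides. With no dye term 1847 of all probes were called in place of 5447. The cause was not tested. Dim probes limit what can be said of the 4 members read on no WT array.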
